A study of Homo sapiens with 24 samples.

Results

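RASD1, PADI1, CA6, MDGA1, P2RX1, SLC39A5, NYNRIN, FOLR1, F10 and AQP3 are 10 genes selected on the size of their RepSox response in SW620 cells, out of 33382 genes listed. Each was found by its Ensembl identifier, and all 10 were among the 15302 genes with enough reads to test. Because the RepSox response of SW620 chose them, that response is described below without a test. The other comparisons, with TGFB1, in SW480 cells and between constructs, are tested.

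All 10 are protein-coding genes, and their positions are those of GENCODE 29 on GRCh38. CA6 (chr1:8945867-8975092, plus strand) and PADI1 (chr1:17205126-17246005, plus) are on the short arm of chromosome 1, and P2RX1 (chr17:3896592-3916500, minus) and RASD1 (chr17:17494437-17496395, minus) are both on chromosome 17. The others are MDGA1 (chr6:37630679-37699306, minus), AQP3 (chr9:33441154-33447633, minus), FOLR1 (chr11:72189558-72196323, plus), SLC39A5 (chr12:56230049-56237846, plus), F10 (chr13:113122814-113149529, plus) and NYNRIN (chr14:24398786-24419288, plus).

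SW480 and SW620 are human colon carcinoma lines derived from a primary tumour and a lymph node metastasis of the same patient. Both were infected with a lentivirus that carried either Tet2CD, the catalytic domain of the DNA demethylating enzyme TET2, or no insert (vector), and were selected with 5 µg/ml puromycin. Per the labels, Tet2CD and vector cells of each line were then cultured for 24 h with 1 µM RepSox, with 4 ng/ml TGFB1, or with the solvent DMSO alone. The study's supplement describes a mixture of TGF-beta ligands, another dose of them and a longer treatment for such cells, and the labels are followed here. These 12 groups had 2 libraries each, 24 in all. Whether the pair of libraries in a group goes back to independent cultures is not stated in the labels. The p-values therefore refer to library-to-library spread, part or all of which may be technical.

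The libraries held 2146123 to 4410567 expected counts. TET2 counts separated the constructs in every library, at 207.4 to 2821 CPM (counts scaled to library size) with Tet2CD against 10.3 to 25.2 CPM with vector. The TET2 values are scaled to the total count of the library, and the CPM of all other genes to the TMM-adjusted total. The epithelial markers EPCAM, CDH1, KRT8, KRT18, KRT19, CDX2 and VIL1 were counted in all 24 libraries. KRT20 reached at most 3.19 CPM, LGALS4 at most 3.82 CPM and CDX1 at most 0.828 CPM. Of the markers of other cell types, PTPRC was at 0 in 23 libraries, HBB in 24 and COL3A1 in 19. The fibroblast marker COL1A1 and the endothelial marker VWF were counted in all 24, at up to 21.95 and 17.56 CPM. CD68 reached 40.8 CPM, LUM 16.6 CPM, ESAM 14.1 CPM and PECAM1 10.4 CPM. The 3 replicate 1 libraries of SW480 Tet2CD stood apart, with 10.98% to 16.34% of counts on ribosomal protein genes, against 6.23% to 10.12% in the other 21. All libraries shared 1 fit, and results that change without these 3 are given both ways.

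TGFB1 binds a pair of receptors on the cell surface, of which the type I receptor ALK5 (TGFBR1) is a kinase that phosphorylates SMAD2 and SMAD3. These enter the nucleus with SMAD4 and change the transcription of target genes, and in epithelial cells the pathway is known for driving epithelial-mesenchymal transition. RepSox is a small molecule that blocks the kinase of ALK5. A gene that is held up or down by the pathway through ALK5 would be expected, in the textbook view, to move one way with the ligand and the other way with the inhibitor, which is the comparison that the TGFB1 libraries allow.

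With RepSox, 4 of the 10 genes were higher and 6 were lower in SW620. RASD1, a small GTPase of the Ras family that was first described as a dexamethasone-induced gene, reached 80.0, 78.2, 50.9 and 59.9 CPM in the 4 RepSox libraries (Tet2CD first, then vector), against 1.24, 3.73, 1.55 and 3.52 CPM with DMSO. The 4 RepSox libraries sat far above all DMSO libraries, and those with Tet2CD were above those with vector. The fitted log2 fold change was 4.69 (SE 0.34), a 25.8-fold difference and the 4th largest increase among the 15302 genes. The sums behind it were 1001 counts with RepSox and 38 with DMSO. In such bulk libraries, a change in the number of expressing cells and a change in RNA per cell cannot be told apart. PADI1 encodes an enzyme that converts arginine residues of proteins to citrulline and is known from the epidermis. It had 43.2, 54.9, 55.3 and 50.7 CPM with RepSox against 4.47, 6.76, 4.33 and 2.35 CPM with DMSO, a log2 fold change of 3.55 (SE 0.18).

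MDGA1 encodes an immunoglobulin-type protein that is anchored in the membrane by a lipid and is known from neurons, where it binds neuroligin. Its RepSox libraries divided by construct. They had 10.2 and 10.5 CPM with Tet2CD and 32.4 and 30.1 CPM with vector, against 3.48, 1.40, 3.71 and 4.11 CPM with DMSO in the same order. The log2 fold change over both constructs was 2.54 (SE 0.24). Per length the groups overlapped, at 1.96 to 14.1 TPM with RepSox against 0.95 to 2.16 TPM with DMSO, where TPM uses the transcript length that RSEM estimated in each library. CA6 encodes a secreted carbonic anhydrase known from saliva, and of the 10 genes only its RepSox and DMSO libraries overlapped in CPM over both constructs. It had 12.7 and 11.3 CPM in Tet2CD cells with RepSox, against 5.46 and 3.73 CPM in Tet2CD cells with DMSO. In vector cells it had 3.86 and 3.90 CPM with RepSox, against 0.310 and 0 CPM with DMSO. Within each construct the RepSox libraries were above the DMSO libraries. In vector cells the difference rested on 26 counts against 1, a ratio of 25.7, and in Tet2CD cells on 96 counts against 38, a ratio of 2.62. The ratio in vector cells hangs on 1 DMSO count. Both ratios come from libraries that chose CA6, so no interval is given.

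The 6 lower genes each had all 4 RepSox libraries below all 4 DMSO libraries in CPM. P2RX1, an ATP-gated cation channel known from platelets and smooth muscle, had 0.746, 0.501, 1.29 and 1.06 CPM with RepSox against 3.97, 6.06, 7.74 and 7.33 CPM with DMSO, a log2 fold change of -2.79 (SE 0.36). SLC39A5, the zinc importer ZIP5 of enterocytes and pancreas, had 1.99, 1.25, 1.54 and 2.13 CPM with RepSox against 11.2, 12.4, 14.2 and 9.68 CPM with DMSO (-2.77, SE 0.36). These were the largest decreases of the 10, and both left 2 to 8 counts per library with RepSox. NYNRIN, a gene that arose from a retroviral element and is named for its NYN and integrase-like domains, averaged 0.958 ± 0.128 CPM with RepSox and 5.89 ± 0.746 CPM with DMSO (SD, n = 4 each), a log2 fold change of -2.59 (SE 0.38). It rested on 3 or 4 counts per library with RepSox, and in TPM the groups overlapped, at 0.170 to 1.32 with RepSox against 1.04 to 2.25 with DMSO.

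FOLR1, the lipid-anchored folate receptor alpha, had 10.2, 5.76, 3.60 and 4.26 CPM with RepSox against 31.0, 28.4, 34.0 and 24.9 CPM with DMSO (-2.40, SE 0.27). F10, coagulation factor X, a protease made chiefly by the liver, was the most highly expressed of the lower genes. It averaged 9.90 ± 1.48 CPM with RepSox and 45.7 ± 8.58 CPM with DMSO (SD, n = 4 each), and its log2 fold change was -2.19 (SE 0.26). AQP3, a channel for water and glycerol in the basolateral membrane of colon epithelium, averaged 1.77 ± 0.227 CPM with RepSox and 7.02 ± 0.497 CPM with DMSO (-1.97, SE 0.33). AQP3 had the smallest change of the 10, with 132 genes falling further. In this comparison 2.01% of all genes tested were called higher and 2.68% lower at an adjusted p under 0.05. Nothing is read from that for the 10 genes, which the same values chose.

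**Figure D1:**
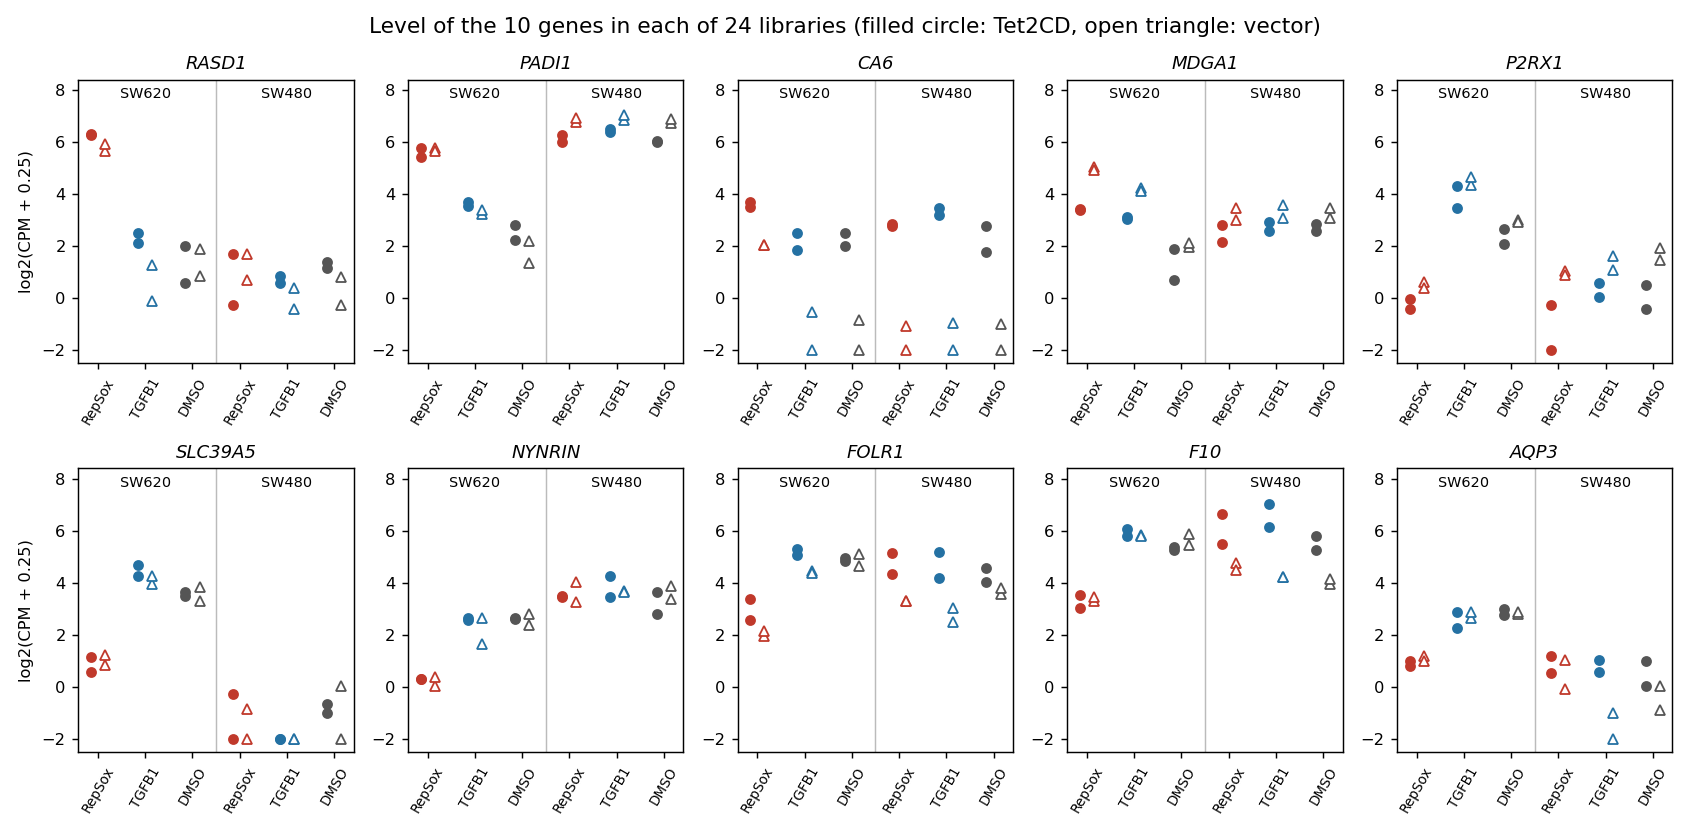
Level of each gene in each library, as log2(CPM + 0.25) on the vertical axis, by treatment within SW620 (left of the grey line) and SW480 (right of it). Filled circles are Tet2CD libraries and open triangles vector libraries, 1 point per library; in SW620 the RepSox libraries of RASD1 lie at 50.9 to 80.0 CPM against 1.24 to 3.73 CPM with DMSO, and those of F10 at 8.02 to 11.4 CPM against 38.5 to 58.1 CPM.

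The promoter windows of 3 of the genes are shown because the genes moved in 3 different ways. RASD1 had the largest increase with RepSox and an uncalled difference with TGFB1, PADI1 was higher with both agents, and SLC39A5 was lower with RepSox and had all 4 TGFB1 libraries above DMSO, though uncalled in the fit of all libraries. PADI1 and SLC39A5 were chosen after their values had been seen. Each window is the 250 bases before the start of transcription in the RefSeq annotation of GRCh38.p14, read 5′ to 3′ along the gene, at chr17:17496396-17496645 on the minus strand for RASD1, chr1:17204878-17205127 on the plus strand for PADI1 and chr12:56229801-56230050 on the plus strand for the first of 2 SLC39A5 starts. Capitals mark matches on either strand to the SMAD box CAGAC or the GC-rich SMAD site GGCGC.
RASD1: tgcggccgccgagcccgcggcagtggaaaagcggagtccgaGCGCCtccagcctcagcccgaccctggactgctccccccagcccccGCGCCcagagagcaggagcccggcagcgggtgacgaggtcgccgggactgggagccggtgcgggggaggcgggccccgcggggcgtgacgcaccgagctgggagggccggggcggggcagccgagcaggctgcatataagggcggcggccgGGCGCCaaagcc
PADI1: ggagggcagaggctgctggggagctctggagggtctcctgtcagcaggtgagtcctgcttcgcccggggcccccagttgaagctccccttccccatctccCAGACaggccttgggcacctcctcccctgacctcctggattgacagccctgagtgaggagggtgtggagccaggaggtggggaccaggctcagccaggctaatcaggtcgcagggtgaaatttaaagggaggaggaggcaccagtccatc
SLC39A5: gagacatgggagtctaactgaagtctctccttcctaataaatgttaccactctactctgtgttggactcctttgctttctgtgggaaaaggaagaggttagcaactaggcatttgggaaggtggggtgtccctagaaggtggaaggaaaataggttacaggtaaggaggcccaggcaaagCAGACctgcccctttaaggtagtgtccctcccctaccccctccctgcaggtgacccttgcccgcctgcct
The RASD1 window held 4 matches to GGCGC, of which the last 2 overlap because one strand's match runs into the other's, and no CAGAC. The PADI1 and SLC39A5 windows held 1 CAGAC each and no GGCGC. RefSeq windows were found for 8 of the 10 genes (all but P2RX1 and FOLR1), 9 windows in all. CAGAC was in 4 of the 9 and in 38.0% of all 35114 promoter windows, GGCGC in 4 of the 9 and in 44.5% of all windows, and the AP-1 motif TGANTCA in 0 of the 9 and in 6.57% of all windows. A match is a description of the letters and not a binding site.

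With TGFB1, P2RX1, MDGA1 and PADI1 rose in SW620, of which P2RX1 alone moved against its RepSox change. Of the 10 genes 3 rose and 0 fell by the quasi-likelihood test of edgeR, adjusted over all 15302 genes, beside 8.31% of all genes called higher and 7.27% called lower. The median log2 fold change was 0.31 over the 10 genes and 0.01 over all genes. The TGFB1 and RepSox comparisons share the 4 SW620 DMSO libraries, so a deviation of those libraries would enter both with the same sign.

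P2RX1 had 19.6, 10.9, 20.1 and 25.2 CPM with TGFB1 against 3.97, 6.06, 7.74 and 7.33 CPM with DMSO, all 4 above. The log2 fold change was 1.59 (SE 0.25, adjusted p = 4.5e-04 by edgeR's test), beside -2.79 with RepSox. The order of its levels in SW620 was therefore TGFB1, then DMSO, then RepSox, with no overlap between neighbours. SLC39A5 had the same order without overlap, at 25.3, 19.0, 15.2 and 19.1 CPM with TGFB1 against 9.68 to 14.2 CPM with DMSO and 1.25 to 2.13 CPM with RepSox. Its log2 fold change with TGFB1 was 0.72 (SE 0.28) and missed the threshold in the fit of all libraries (edgeR adjusted p = 0.0977). It passed without the 3 SW480 Tet2CD replicate 1 libraries (adjusted p = 0.0158) and with the SW620 libraries alone (adjusted p = 0.0033). F10 had 67.9, 54.9, 56.8 and 54.9 CPM with TGFB1 against 38.5, 42.0, 44.2 and 58.1 CPM with DMSO. The groups overlapped through 1 DMSO library, and the log2 fold change of 0.37 (SE 0.23, edgeR adjusted p = 0.311) passed only in the same 2 alternative fits (adjusted p = 0.0250 and 0.0173).

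MDGA1 and PADI1 rose with TGFB1 as well as being higher with RepSox. MDGA1 had 8.42, 8.14, 18.9 and 17.3 CPM with TGFB1 against 3.48, 1.40, 3.71 and 4.11 CPM with DMSO, a log2 fold change of 1.98 (SE 0.24, edgeR adjusted p = 4.4e-05) beside 2.54 with RepSox. PADI1 had 11.4, 12.9, 9.30 and 10.4 CPM with TGFB1 against 4.47, 6.76, 4.33 and 2.35 CPM with DMSO, a log2 fold change of 1.33 (SE 0.19, edgeR adjusted p = 1.7e-04) beside 3.55 with RepSox. For both genes the TGFB1 libraries were above the DMSO libraries within each construct too. The calls of P2RX1, MDGA1 and PADI1 held in each of the 15 alternatives run.

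The other members were not called with TGFB1. RASD1 had 5.43, 4.07, 2.20 and 0.675 CPM with TGFB1 against 1.24, 3.73, 1.55 and 3.52 CPM with DMSO, a log2 fold change of 0.04 (SE 0.48). NYNRIN (-0.19, SE 0.29), FOLR1 (-0.09, SE 0.23), AQP3 (-0.17, SE 0.28) and CA6 (0.25, SE 0.73) had overlapping libraries. FOLR1 had TGFB1 libraries above DMSO in Tet2CD cells, at 39.4 and 33.2 CPM against 31.0 and 28.4 CPM. In vector cells they were below, at 21.6 and 20.7 CPM against 34.0 and 24.9 CPM. Markers also moved with TGFB1 in SW620. Of 9 colon carcinoma line markers tested, 1 rose and 0 fell, the epithelial cadherin gene CDH1 (0.79, SE 0.17), and the summed level of the list was 10010 to 12040 CPM with TGFB1 against 7727 to 8353 CPM with DMSO. KRT8, KRT18 and KRT19 rose as well, and CDX2 fell, without the 3 SW480 Tet2CD replicate 1 libraries, and the same 3 keratins rose with the SW620 libraries alone. Of 4 fibroblast markers COL1A1 rose (0.83, SE 0.19), with a sum of 23.4 to 39.8 CPM against 22.1 to 24.7 CPM, and of 3 endothelial markers VWF rose (1.11, SE 0.32), with a sum of 7.84 to 13.6 CPM against 4.22 to 7.23 CPM. The part of these markers in the changes of P2RX1, MDGA1 and PADI1 was not tested.

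**Figure D2:**
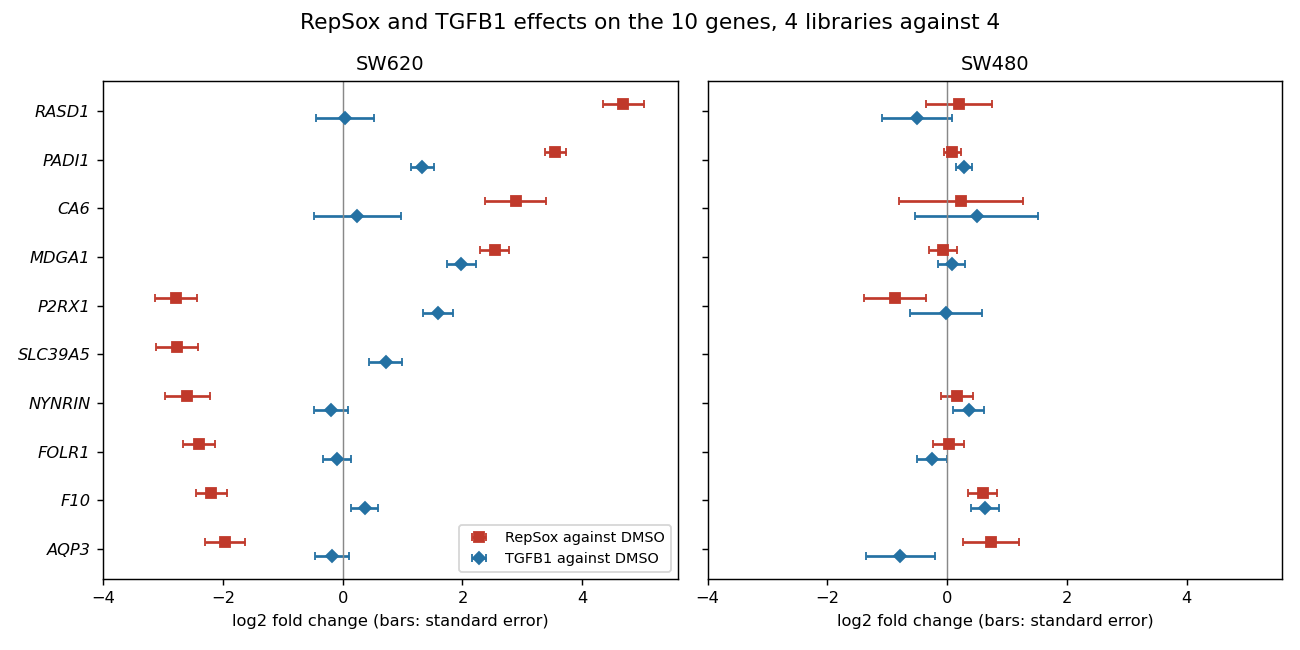
Log2 fold change of each gene with RepSox (squares) and TGFB1 (diamonds) against DMSO in SW620 (left) and SW480 (right), 4 libraries against 4, with standard errors as bars; SLC39A5 is left out of the SW480 panel because it had 0 to 3 counts per library there. In SW620, MDGA1 and PADI1 are right of 0 with both agents, while P2RX1 lies at -2.79 with RepSox and 1.59 with TGFB1.

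Target genes of the pathway were read in the same fits. Of 25 TGF-beta/SMAD target genes tested, 10 rose and 0 fell with TGFB1 in SW620, among them PDGFB, a growth factor chain (log2 fold change 1.74, SE 0.18). With RepSox 3 of the 25 rose and 0 fell in SW620. These were PMEPA1, a feedback inhibitor of SMAD signalling (1.07, SE 0.11), the matrix protein gene TGFBI (0.75, SE 0.12) and TAGLN, which encodes an actin-binding protein (0.90, SE 0.21). PMEPA1 also rose with TGFB1 (0.47, SE 0.11), so it moved the same way with the ligand and the inhibitor, as MDGA1 and PADI1 did. Without the 3 SW480 Tet2CD replicate 1 libraries 14 of 25 rose and 0 fell with TGFB1, and 5 rose and 3 fell with RepSox, the 3 being BHLHE40, SKI and PDGFA. The median log2 fold change of the list with RepSox in SW620 was 0.09, against 0.01 over all genes. In SW480 4 of the 25 rose and 1 fell with TGFB1, and 0 were called with RepSox. The SW480 counts with TGFB1 were 8 and 1 without those 3 libraries, and 0 and 0 with the SW480 libraries alone. Of 6 BMP/SMAD targets tested, ID1 fell with RepSox (-0.88, SE 0.15) and rose with TGFB1 (0.76, SE 0.14), while SMAD6 rose with both (0.59, SE 0.16 with RepSox and 0.58, SE 0.16 with TGFB1).

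Relatives of the 10 genes seldom passed the test with RepSox in SW620. Of 10 coagulation genes tested beside F10, 3 fell and 0 rose. They were PROS1, which encodes the anticoagulant cofactor protein S (-1.28, SE 0.22), F5, coagulation factor V (-0.91, SE 0.14), and F7, coagulation factor VII (-2.51, SE 0.64, edgeR adjusted p = 0.0493). F7 was not called by DESeq2. PROC, which encodes the anticoagulant protein C, also fell with RepSox without the 3 SW480 Tet2CD replicate 1 libraries, with the SW620 libraries alone and with the GC content offset. None of these 10 was called with TGFB1 in the fit of all libraries, while PROC rose with TGFB1 in the first 2 of those alternatives, F12 fell in the first and PROZ rose in the second. Of the PADI1 relatives PADI2 (1.12, SE 0.46) and PADI3 (2.75, SE 0.73) were not called with RepSox, and PADI3 passed with RepSox without the 3 SW480 libraries that stood apart. In the fit of all libraries, 0 of 7 other carbonic anhydrases and 0 of 11 other zinc transporters of the SLC39 family were called with RepSox. In that fit 0 of 4 other P2X receptors and 0 of 4 other aquaporins were called. Nor were any of the 6 relatives of RASD1, 3 of MDGA1, 6 of NYNRIN and 2 of FOLR1 called there. Without those 3 libraries CA11, P2RX4, SLC39A13, SLC19A1 and KHNYN fell and SLC39A11 rose. With TGFB1, 2 of 6 relatives of RASD1 fell, the small GTPase genes RASL11B (-1.74, SE 0.29) and RASL10B (-0.83, SE 0.13), as did the carbonic anhydrase gene CA12 (-1.31, SE 0.42), the zinc transporter gene SLC39A3 (-1.11, SE 0.27) and the reduced folate carrier gene SLC19A1 (-0.75, SE 0.15). KHNYN, which has a NYN domain as NYNRIN does, rose with TGFB1 (0.62, SE 0.17).

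Markers moved with RepSox in SW620 as well. Of 9 colon carcinoma line markers tested, 0 rose and 1 fell, the intestinal transcription factor gene CDX2 (-1.21, SE 0.23), while the median log2 fold change of the list was 0.42 and its summed level was 11480 to 13360 CPM with RepSox against 7727 to 8353 CPM with DMSO. The keratin genes KRT8, KRT18 and KRT19 rose without the 3 SW480 Tet2CD replicate 1 libraries, the same 3 and KRT20 with the SW620 libraries alone, KRT8 and KRT19 with the GC content offset, and KRT8 by DESeq2. Of 4 fibroblast markers COL1A1 fell (-1.08, SE 0.22), with a sum of 12.9 to 20.2 CPM against 22.1 to 24.7 CPM. Of 3 endothelial markers PECAM1 rose (1.40, SE 0.32) to at most 10.4 CPM, with a sum of 8.75 to 16.9 CPM against 4.22 to 7.23 CPM, and CDH5 rose too without the 3 SW480 libraries. Blood cell markers were not called, at sums of 20.3 to 41.9 CPM against 24.8 to 38.7 CPM. The part of these markers in the differences of the 10 genes was not tested.

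Reads of overlapping genes on the other strand cannot be told apart here, because none of the sources used here states the strand setting of the counting. SLC39A5 overlaps ANKRD52, whose own log2 fold change with RepSox in SW620 was -0.07 (SE 0.20) at 114.1 to 145.0 CPM. FOLR1 overlaps AP000812.1, which was at 0 in all SW620 libraries, and F10 overlaps F10-AS1, which reached at most 0.466 CPM there.

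In SW480 none of the 10 genes passed the test with RepSox. There 0 of the 10 were called, as were 0% of all genes in either direction by edgeR, with 433 of 15302 genes at an unadjusted p under 0.05 and 1 gene called by DESeq2. Of the 10, only F10 had an unadjusted p under 0.05, with a log2 fold change of 0.60 (SE 0.24), where it had -2.19 in SW620. DESeq2 called 0 of the 10. RASD1 had 3.03, 0.584, 3.03 and 1.40 CPM with RepSox in SW480 against 2.35, 1.99, 0.587 and 1.54 CPM with DMSO, or 23 counts against 22 (ratio 1.15, exact 95% interval 0.611 to 2.16 for counting error). PADI1 (0.09, SE 0.14), MDGA1 (-0.07, SE 0.23), NYNRIN (0.16, SE 0.26) and FOLR1 (0.03, SE 0.25) were counted in every SW480 library and had overlapping groups over both constructs. Within each construct these 4 genes overlapped too, except FOLR1 in vector cells. There it had 9.71 and 9.55 CPM with RepSox, below 11.75 and 13.57 CPM with DMSO. AQP3 (0.73, SE 0.46) and P2RX1 (-0.87, SE 0.51) had few counts. In SW480 vector cells P2RX1 had 1.82 and 1.63 CPM with RepSox, below 3.52 and 2.56 CPM with DMSO. F10 in those cells had 27.3 and 22.1 CPM with RepSox, above 15.3 and 17.4 CPM with DMSO. Both genes overlapped in SW480 Tet2CD cells. The difference between the lines in the RepSox response was not tested, because the genes were chosen on the SW620 side of it.

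TGFB1 also left the 10 genes uncalled in SW480, where 0.732% of all genes were called higher and 0.314% lower. By edgeR F10 (0.63, SE 0.24) and SLC39A5 had an unadjusted p under 0.05, and by DESeq2 0 of the 10 were called. Within each SW480 construct the TGFB1 libraries of F10 were above DMSO. They had 129.6 and 70.0 against 55.3 and 38.2 CPM with Tet2CD. With vector they had 18.43 and 18.42 against 15.3 and 17.4 CPM. CA6 and PADI1 were above DMSO, and RASD1 and SLC39A5 below, in Tet2CD cells only. FOLR1 and AQP3 were below in vector cells only. SLC39A5 had 0 counts over the 4 TGFB1 libraries of SW480 and 5 over the 4 DMSO libraries. The difference between the lines in the TGFB1 effect was itself tested, with 2.07% of all genes called. It was called for MDGA1, at 1.91 on the log2 scale (SE 0.33, edgeR adjusted p = 0.00648), from 1.98 in SW620 and 0.08 in SW480. It was called for PADI1, at 1.05 (SE 0.23, edgeR adjusted p = 0.0278), from 1.33 in SW620 and 0.28 in SW480, but this call was lost when any of 11 single libraries was left out. P2RX1 had a difference of 1.61 (SE 0.52, edgeR adjusted p = 0.134) and was not called.

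Levels in the 2 lines are set side by side in the TGFB1 libraries as a description. The choice of genes bears on them, since a gene chosen for a fall with RepSox needs a high level in SW620 and one chosen for an increase has room for it there, and AQP3, P2RX1, RASD1 and SLC39A5 passed the filter on low counts through their SW620 libraries. Of all genes 56.3% were called between the lines, and of the 10 genes 5 were higher and 2 lower in SW620, from which nothing is read. SLC39A5 had 296 counts over the 4 SW620 libraries and 0 over the 4 SW480 libraries. Over all treatments it had 8 counts in the 12 SW480 libraries, of which 7 were at 0. AQP3 averaged 6.26 ± 1.20 CPM in SW620 and 0.832 ± 0.854 CPM in SW480 with TGFB1 (SD, n = 4 each). P2RX1 averaged 18.9 ± 5.95 CPM in SW620 and 1.69 ± 0.881 CPM in SW480. FOLR1 (log2 difference 1.06, SE 0.25) and MDGA1 (0.58, SE 0.22) were higher in SW620 by less, and the MDGA1 call was lost in 9 of 14 alternatives.

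PADI1 ran the other way. It averaged 10.99 ± 1.53 CPM in SW620 and 104.6 ± 22.0 CPM in SW480 with TGFB1 (SD, n = 4 each), a log2 difference of -3.23 (SE 0.16). Its level in RepSox-treated SW620, 43.2 to 55.3 CPM, was below the 63.5 to 130.6 CPM of the 12 SW480 libraries. NYNRIN was also lower in SW620, at 5.21 ± 1.54 CPM against 13.7 ± 3.70 CPM in SW480 (-1.41, SE 0.27). RASD1 (1.26, SE 0.53, edgeR adjusted p = 0.0506), F10 (0.45, SE 0.23) and CA6 (-0.22, SE 1.29) were not called, but both RASD1 (1.65, adjusted p = 0.00902) and F10 (0.81, adjusted p = 7.1e-04) were called higher in SW620 by edgeR with the GC content offset. F10 was also called without the 3 SW480 libraries that stood apart (0.65, adjusted p = 2.8e-04). RASD1 was low in both lines outside the SW620 RepSox libraries, with at most 3.03 CPM in SW480.

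**Figure D3:**
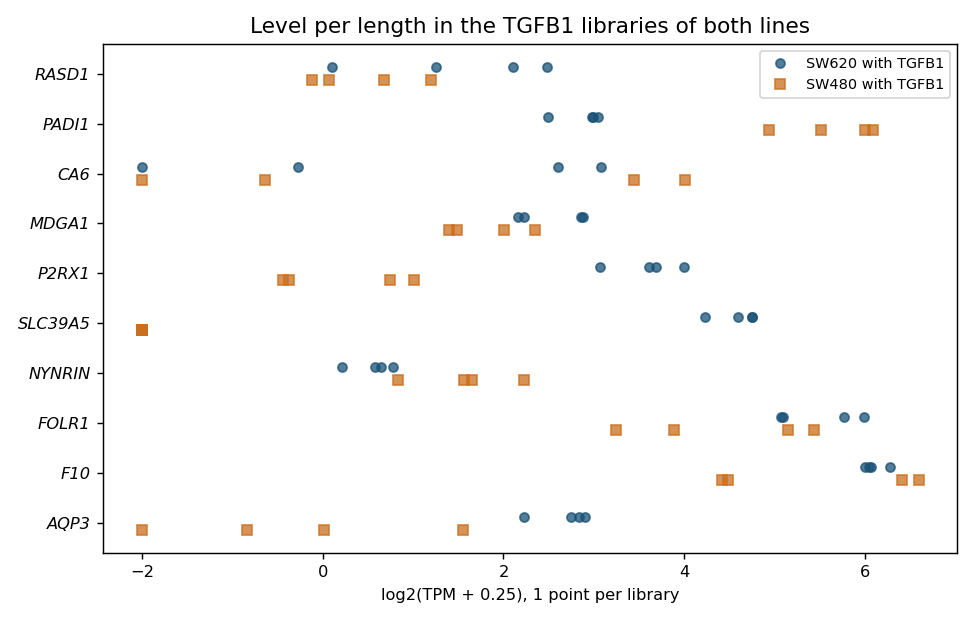
Level per length of each gene in the TGFB1 libraries of SW620 (circles) and SW480 (squares), as log2(TPM + 0.25) on the horizontal axis, 1 point per library. SLC39A5 lies at 18.5 to 26.7 TPM in SW620 and at 0 in all 4 SW480 libraries, while PADI1 lies at 5.39 to 7.98 TPM in SW620 and 30.5 to 67.8 TPM in SW480.

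Levels between genes are compared only per length, in TPM. Their order in SW620 turned with the treatment. With RepSox RASD1 averaged 60.6 TPM and PADI1 24.2 TPM, without overlap, then CA6 10.9 TPM and F10 10.5 TPM, which overlapped. NYNRIN had the lowest mean, 0.470 TPM. Its libraries, at 0.17 to 1.32 TPM, overlapped those of P2RX1, at 0.3 to 0.8 TPM with a mean of 0.53 TPM. With TGFB1 F10 led with 68.4 TPM, then FOLR1 with 46.1 TPM and SLC39A5 with 24.0 TPM, and with DMSO the same 3 led with 51.6, 46.0 and 14.2 TPM. F10 and FOLR1 overlapped with DMSO. In SW480 PADI1 and F10 overlapped in each treatment, at 44.0 and 40.1 TPM with RepSox, 51.9 and 56.2 TPM with TGFB1 and 41.4 and 31.7 TPM with DMSO. SLC39A5 averaged 0.333 TPM with RepSox, 0 with TGFB1 and 1.04 TPM with DMSO there.

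Tet2CD changed the level of CA6 in both lines. In SW620, averaged over treatments, CA6 was higher with Tet2CD by 3.44 on the log2 scale (SE 0.43, edgeR adjusted p = 0.00106), where 0.314% of all genes were called. The sums were 164 counts in the 6 Tet2CD libraries and 29 in the 6 vector libraries, 26 of these with RepSox. Averaging over treatments takes in the SW620 RepSox and DMSO libraries that chose the genes. That bears on the SW620 values of CA6, MDGA1 and FOLR1 given here. For CA6 the vector DMSO libraries, with 1 count, enter both this difference and the RepSox response. In the SW620 TGFB1 libraries, which did not choose the genes, CA6 had 30 counts with Tet2CD and 2 with vector. In SW480 CA6 was near 0 in all 6 vector libraries, with 3 counts in all against 125 counts in the 6 Tet2CD libraries, a ratio of 52.4 with an exact 95% interval of 17.5 to 257.5 for counting error. RepSox and Tet2CD each went with more CA6 in SW620, and the Tet2CD libraries with RepSox had the highest level of the 12 groups, 12.7 and 11.3 CPM, with the SW480 Tet2CD libraries with TGFB1 next at 10.8 and 8.88 CPM. MDGA1 was lower with Tet2CD in SW620 by the averaged fit (-1.13, SE 0.19, edgeR adjusted p = 0.0135). That call was lost when any of 6 single SW620 libraries was left out (adjusted p up to 0.0860). FOLR1 had 0.61 (SE 0.21, edgeR adjusted p = 0.431) and was called without the 3 SW480 libraries that stood apart (0.62, adjusted p = 0.0278).

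A difference between constructs in the RepSox response was called for 0 of the 10 genes by edgeR's test, where 0% of all genes were called, 188 of 15302 had an unadjusted p under 0.05, and DESeq2 called 0. This comparison uses the SW620 RepSox and DMSO libraries that also chose the genes, so the values below are a description. Of the 10, PADI1 (-0.87, SE 0.36) and CA6 (-3.02, SE 1.12) had an unadjusted p under 0.05. Both estimates are negative, that is, the log2 increase was smaller in Tet2CD cells than in vector cells. The RepSox log2 fold change of PADI1 was 3.11 in Tet2CD and 3.98 in vector cells, and that of RASD1 was 4.96 in Tet2CD and 4.42 in vector cells. The TET2 level of SW620 Tet2CD cells itself was 694.0 and 727.8 CPM of the library total with RepSox against 1321 and 1334 CPM with DMSO, and its part in these differences was not tested.

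In SW480 54.5% of all genes differed between Tet2CD and vector, 4466 higher and 3870 lower with Tet2CD, and 7 of the 10 did. Without the 3 replicate 1 libraries of Tet2CD that stood apart, 2859 genes were higher and 3139 lower of 15769 tested. With the SW480 libraries alone 3232 were higher and 2399 lower of 14167, and 5 of the 6 members tested there were called, with AQP3 and P2RX1 among those too low to test. CA6, F10, AQP3 and FOLR1 were higher with Tet2CD, and P2RX1, PADI1 and MDGA1 were lower. F10 had 99.3, 44.7, 129.6, 70.0, 55.3 and 38.2 CPM in the 6 Tet2CD libraries (RepSox, TGFB1 and DMSO in turn, replicate 1 before 2) against 15.3 to 27.3 CPM in the vector libraries, a log2 difference of 1.82 (SE 0.20). The higher of each pair of Tet2CD values was a replicate 1 library that stood apart. Without those 3 libraries F10 was still higher with Tet2CD, by 1.32 (SE 0.12), FOLR1 by 0.93 (SE 0.17) against 1.37 with them, and the same 7 calls were made. P2RX1 had a log2 difference of -1.74 (SE 0.37), with 0 to 3 counts in each Tet2CD library.

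**Figure D4:**
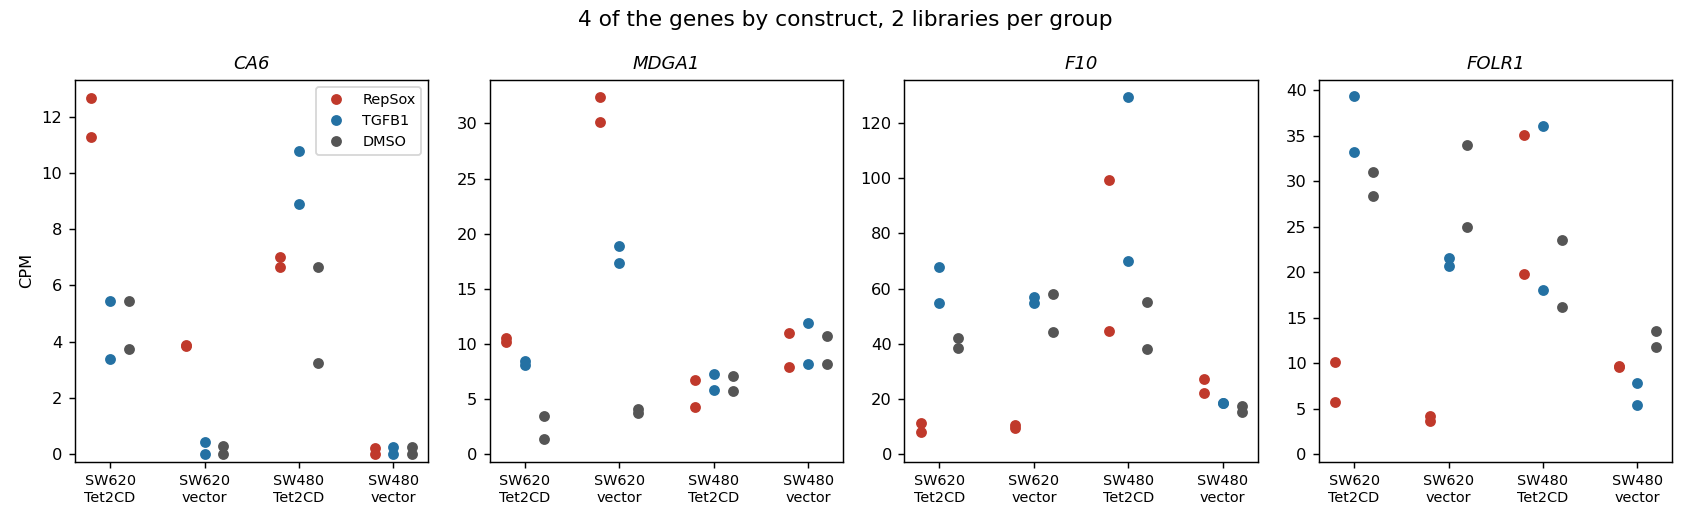
CPM of CA6, MDGA1, F10 and FOLR1 by line and construct, 1 point per library and 2 libraries per group, coloured by treatment. CA6 is at 0 to 0.271 CPM in the SW480 vector libraries against 3.23 to 10.8 CPM in the SW480 Tet2CD libraries, and MDGA1 is at 30.1 and 32.4 CPM in SW620 vector cells with RepSox.

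Across the 12 group means of log2 CPM the genes did not move as 1 block. SLC39A5 and AQP3 were the most alike (Pearson's r = 0.92), then FOLR1 and F10 (0.89) and P2RX1 and SLC39A5 (0.82). PADI1 ran against AQP3 (-0.94) and SLC39A5 (-0.93), and RASD1 against NYNRIN (-0.91). RASD1 and PADI1, the largest increases, had r = -0.01. These values are descriptions over 12 means that share the line, treatment and construct effects. By the same measure the most similar genes outside the 10 were MCF2L and GPR183 for SLC39A5 (both 0.98), KIAA1522 for P2RX1 (0.98), ZNF316 for NYNRIN (0.97), SIDT2 for AQP3 (0.97), C11orf52 for F10 (0.96), AFAP1L2 for PADI1 (0.95), PCBP4 for FOLR1 (0.95), CEACAM5 for RASD1 (0.93), TRMU for CA6 (0.91) and KIAA1755 for MDGA1 (0.89).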

How the data were processed

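RNA-seq of SW480 and SW620 cells was deposited as 24 gene tables, 1 per library. Per the labels and the study's methods, TRIzol RNA went into TruSeq libraries, and the authors used Bowtie and RSEM to estimate expected counts and TPM per Ensembl gene. The submitters' notes name the mouse build mm10, while all identifiers are human. The deposited FPKM column was not used. Symbols and positions came from GENCODE 29 (GRCh38).

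Expected counts were rounded, filtered with filterByExpr (15302 genes kept), TMM-scaled and fitted in edgeR 4.0.16 (R 4.3.3) with 1 mean for each of 12 groups and 12 residual degrees of freedom. The quasi-likelihood test was used, with Benjamini-Hochberg adjustment over all genes tested and a threshold of 0.05. CPM are counts scaled to the TMM-adjusted library size, except those of TET2, which use the total count, and SE is the log2 fold change over the square root of F. Count intervals are exact binomial and cover counting error only, since reads carried no molecular identifiers. The common biological coefficient of variation was 21.3%.

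All 10 genes are named. From each gene list at most 2 called genes per direction are named, or the 2 with the largest fold where none was called, and where a list had 5 or fewer calls in a direction others were named after their values were seen. The values of 1 called list gene are not reported here. The members and lists were chosen with earlier results of these data known. Alternatives were DESeq2, RLE scaling, no filter, a term for library numbers 21 to 32 against 33 to 44, a GC content offset, the libraries of the line alone, leaving out 3 libraries, and leaving out each library in turn. Scripts were tested on simulated data.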

Additional observations from a re-analysis of the deposited data

Results flagged for a closer look

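The effect of TGFB1 on MDGA1 differed between SW620 and SW480 by 1.91 on the log2 scale (SE 0.33, edgeR adjusted p = 0.00648), and the difference was called in each of the 22 alternatives run. All 4 TGFB1 libraries were above all 4 DMSO libraries in SW620, and the groups overlapped in SW480. The effect of TGFB1 on PADI1 differed by 1.05 (SE 0.23, edgeR adjusted p = 0.0278), and this call held in 10 of 22 alternatives. Both were picked out because the difference between the lines was itself tested and called. Both differences share the 4 SW620 DMSO libraries with the response that chose the genes.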

How the results depend on the processing

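No member value that was called changed its sign in 506 recalculations, and 27 of them lost the call. The 506 include the RepSox response of SW620, which chose the genes and for which lost calls were not counted. Nothing is read from the kept signs of that response. The number of the 10 genes called with TGFB1 in SW620 was 3, and it was 5 without the 3 SW480 Tet2CD replicate 1 libraries and 5 with the SW620 libraries alone, the added genes being SLC39A5 and F10. For the difference in the TGFB1 effect between the lines it was 2, and 1 with no filter on low counts. Leaving out single libraries gave 1 to 2 called genes for that difference, 1 to 2 for Tet2CD against vector in SW620 and 6 to 7 for SW620 against SW480 with TGFB1, where MDGA1 was lost without SW480 Tet2CD or vector TGFB1 replicate 1 or any SW620 TGFB1 library (adjusted p up to 0.176 over all alternatives). The PADI1 difference was lost without a single SW480 Tet2CD DMSO or vector DMSO library (either replicate), either SW480 vector TGFB1 library, SW620 Tet2CD DMSO replicate 1, vector DMSO replicate 2, Tet2CD TGFB1 replicate 2 or either SW620 vector TGFB1 library. Over all its alternatives it was 0.82 to 1.27, with adjusted p up to 0.122. MDGA1 with Tet2CD in SW620 was lost without SW620 Tet2CD RepSox replicate 1, vector DMSO replicate 1 or 2, vector TGFB1 replicate 1, vector RepSox replicate 1 or Tet2CD DMSO replicate 2. The RepSox log2 fold change of CA6 in SW620 ran over 2.43 to 4.07, its extremes coming without SW620 vector DMSO replicate 1 or 2.

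Counts over all genes moved more, given as higher and lower. RepSox in SW620 had 307 and 410, 1130 and 1300 without the 3 SW480 Tet2CD replicate 1 libraries, 1395 and 1466 with the SW620 libraries alone, and 118 to 147 and 213 to 265 without any 1 of its libraries. TGFB1 in SW620 had 1271 and 1112, 2516 and 2931 without those 3, 2818 and 2943 with SW620 alone, and 743 to 1048 and 746 to 890 without any 1 of its libraries. TGFB1 in SW480 had 112 and 48, 503 and 499 without those 3, 242 and 147 by DESeq2, 192 and 105 with no filter, 179 and 126 with the GC content offset, 0 and 0 with SW480 alone, and 37 to 149 and 12 to 129 without any 1 of its libraries. Tet2CD against vector in SW620 had 42 and 6, 323 and 144 without those 3, 382 and 261 with SW620 alone, 73 and 18 by DESeq2, 85 and 39 with no filter, and 13 to 39 and 1 to 4 without any 1 of its libraries. Tet2CD against vector in SW480 had 4466 and 3870, 2859 and 3139 without those 3, and 3232 and 2399 with SW480 alone. The TGFB1 difference between the lines had 179 and 138, 565 and 762 without those 3, 298 and 244 by DESeq2, 315 and 313 with the GC content offset, and 63 to 239 and 63 to 190 without any 1 of its libraries. With no filter RepSox in SW480 had 22 and 16, and its difference between constructs 14 and 7, where both had 0. Replicate numbers were given in accession order, and the labels do not say that same-numbered libraries belong together. Same-numbered deviations correlated at -0.15 to 0.71 within a line (median 0.03, 11 of 30 pairs over 0.1). Between lines they correlated at -0.24 to 0.17. Some same-numbered libraries thus deviated together, for which the main fit had no term. The replicate block run as an alternative was 1 term common to both lines. It could not take up deviations shared only within a line, so nothing is read from it about those. With a replicate block the number of members called was unchanged in each comparison tested. It was 3 for TGFB1 in SW620, 0 for RepSox and 0 for TGFB1 in SW480, and 7 for SW620 against SW480 with TGFB1. For Tet2CD against vector it was 2 in SW620 and 7 in SW480. It was 0 for the difference between constructs in the RepSox response and 2 for the TGFB1 difference between the lines. Depth limited the genes with at most 15 counts in any library, AQP3, P2RX1, SLC39A5 and RASD1 in SW480 and CA6 in vector cells.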
